A study of Homo sapiens with 4 samples.

Results

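miR-22 is a single microRNA gene, MIR22, and the entry that stands for it here is its 3′ arm, miR-22-3p (hsa-miR-22-3p in the table). It was picked out by name, and it was singled out because it stood higher in both apelin libraries, so its difference between the groups is a description and was not tested. It is 1 of 1096 listed entries, of which 516 carry a catalogue name and 580 are predicted. Small RNA was sequenced from PC-3, a widely used line of human prostate cancer cells that lacks functional p53. PC-3 cells were given apelin at 10 µg/mL for 24 h (2 libraries) or no treatment (2 libraries), both in DMEM with serum and antibiotics. Apelin, a peptide that cells secrete, acts through the receptor APJ, the product of APLNR. The question was which miRNAs differ under the peptide. Whether the libraries within a group stem from separate cultures is not stated in the labels, and the spread between them may be technical.

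A miRNA is cut from a hairpin and guides an Argonaute protein to messages that pair with its seed, bases 2 to 8 from its 5′ end. miR-22-3p is known to repress the TET enzymes, which oxidise methylated DNA. It has been described both as promoting and as restraining tumours, in the prostate among other tissues. Its hairpin lies in the lncRNA MIR22HG, whose transcription is known to respond to cell stress.

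MIR22 lies on chromosome 17 from 1713903 to 1713987 on the minus strand (GRCh38, GENCODE release 29). The hairpin fell within an exon of the lincRNA MIR22HG (1711493 to 1717174) in 5 of its 5 basic transcripts. The 85-base hairpin is shown first, because the 3′ arm that was counted, in capitals, can be read against its partner arm. The mature sequence follows with its seed in capitals; it comes from RefSeq (GRCh38.p14, 1713914 to 1713935).
MIR22 hairpin: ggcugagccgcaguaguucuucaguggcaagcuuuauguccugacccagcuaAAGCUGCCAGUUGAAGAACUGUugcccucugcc
miR-22-3p: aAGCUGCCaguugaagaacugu
The 3′ arm takes bases 53 to 74 of the hairpin and the 5′ arm bases 15 to 36. In the structure predicted by RNAfold (minimum free energy -39.8 kcal/mol) 21 of the 22 bases of miR-22-3p were paired, 19 of them with the 5′ arm. All 7 seed bases were paired in it. Of 2370 mature names in the RefSeq table, 1 had this seed, miR-22-3p itself, and the same held for bases 2 to 7 alone. The count of miR-22-3p therefore has no seed relative beside it. miR-22-5p had no entry under its name and was not analysed here.

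miR-22-3p was counted 7849 and 9564 times in the apelin libraries, and 6859 and 6908 times in the control libraries. In TPM (here the count per 1000000 counts of the library, with no division by length) it stood at 1474.7 and 1677.5 in apelin libraries 1 and 2, and at 1140.3 and 1219.9 in control libraries 1 and 2. Both apelin libraries lay above both controls, and apelin 2 was the highest of the 4. The groups averaged 1576.1 ± 143.4 TPM with apelin and 1180.1 ± 56.2 TPM in controls (SD, n = 2 each), a ratio of means of 1.34. The lowest ratio of an apelin to a control library was 1.21 and the highest 1.47, while the 2 apelin libraries differed by a ratio of 1.14 and the 2 controls by 1.07. The gap of 254.8 TPM between apelin 1 and control 2, the nearest pair across the groups, was above the 202.8 TPM between the apelin libraries and the 79.5 TPM between the controls.

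The reads behind each level were many. The 95% exact Poisson interval was 1442.3 to 1507.7 TPM in apelin 1 and 1644.0 to 1711.5 TPM in apelin 2, against 1113.5 to 1167.7 TPM in control 1 and 1191.3 to 1249.0 TPM in control 2. No interval overlapped another, also between libraries of the same group, so the spread between libraries exceeded counting error. These intervals cover counting error only, as reads copied by PCR and carrying no molecular identifiers are not separate molecules. miR-22-3p made up 0.147% and 0.168% of the counts with apelin, and 0.114% and 0.122% in controls. Its rank among all entries was 62 and 56 with apelin, and 63 and 65 in controls. Among catalogue names it ranked 56 and 55 with apelin, and 60 in both controls. No other entry had the same count in any library. In RNA from whole cultures, more of the miRNA per cell and more cells that hold it cannot be told apart.

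**Figure D1:**
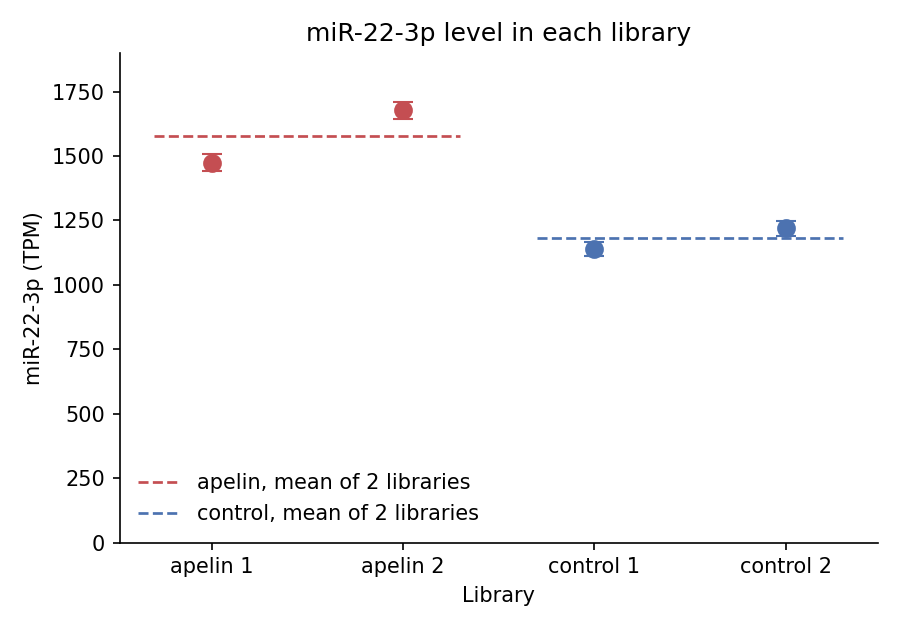
Level of miR-22-3p in each library (y axis, TPM; x axis, library). Points are single libraries with their 95% exact Poisson interval and dashed lines are group means; the apelin libraries, at 1474.7 and 1677.5 TPM, lie above the controls, at 1140.3 and 1219.9 TPM.

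Over the whole table edgeR's quasi-likelihood test called 0 of 263 entries with a mean of at least 10 TPM (0% at an adjusted p under 0.05), with 15 (5.7%) at an unadjusted p under 0.05. DESeq2 called 53 (20.2%) and limma on log2(TPM + 1) called 4 (1.52%). The fitted log2 fold change of miR-22-3p was 0.44 (SE 0.14), against a median of -0.018 over all 263. It was 0.24 without apelin 2 and 0.56 without apelin 1. On the plain log2 TPM scale, where no refit of the scaling enters, the difference was 0.42, or 0.32 without apelin 2. The tested catalogue miRNAs that were above 0 in every library numbered 207, with hairpin copies of a miRNA counted as separate entries. In 47 of them (22.7%), miR-22-3p included by its choice, both apelin libraries stood above both controls, and in 36 (17.4%) both stood below.

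A larger fold change than that of miR-22-3p was fitted for 23 of these 207 miRNAs. Of the 63 among them with a mean of at least 1000 TPM, 3 had a larger one, of which miR-20a-5p in effect tied with it. These were miR-21-5p, the oncomiR that represses PDCD4 (0.57, SE 0.27), miR-30e-5p, from a family that represses EMT genes (0.54, SE 0.28), and miR-20a-5p of the MIR17HG cluster (0.44, SE 0.13). miR-21-5p stood at 113810 and 168194 TPM with apelin, against 91403 and 103045 TPM in controls. miR-30e-5p stood at 1772.1 and 2598.3 TPM with apelin, against 1572.4 and 1482.3 TPM in controls. In both, apelin 2 was far above apelin 1, and without apelin 2 the fold changes were 0.15 for miR-21-5p and 0.13 for miR-30e-5p. miR-20a-5p, whose apelin libraries lay closer together, was at 0.28 without apelin 2. It fell below miR-22-3p under upper quartile scaling (0.41 against 0.42), without apelin 1 (0.53 against 0.56) and without control 2 (0.40 against 0.44). The apelin libraries of miR-22-3p lay closer together than those of miR-21-5p or miR-30e-5p.

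**Figure D2:**
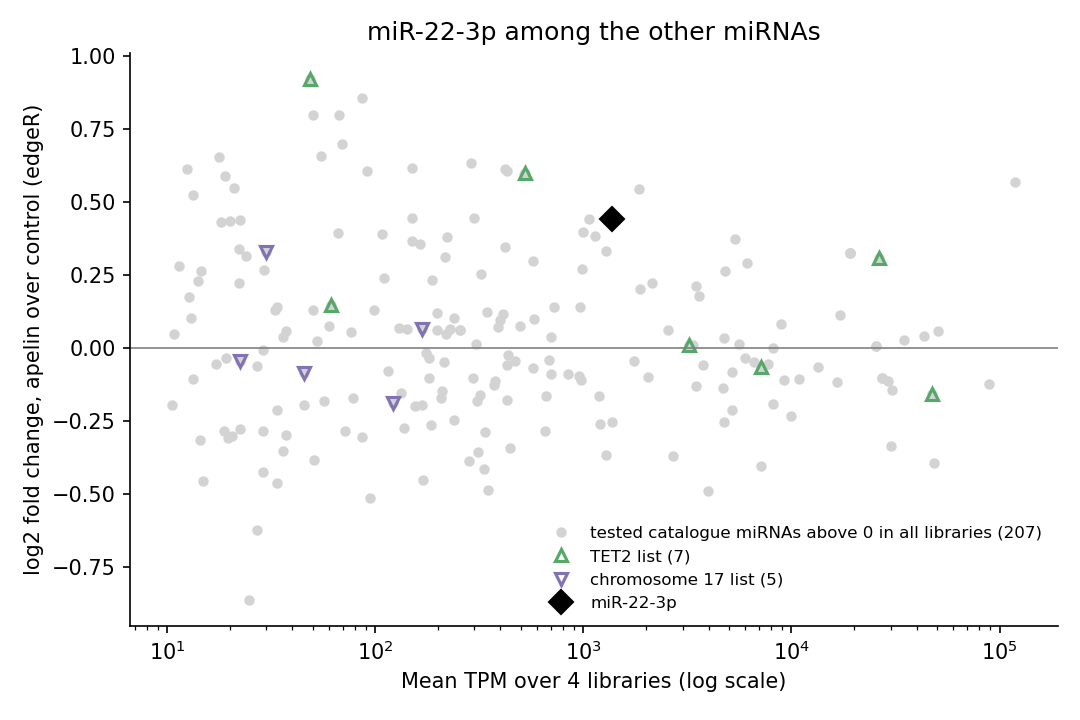
Fitted log2 fold change of apelin over control (y axis) against mean TPM over the 4 libraries (x axis, log scale) for 207 catalogue miRNAs. miR-22-3p is the black diamond, at 0.44; triangles pointing up are the TET2 list and triangles pointing down the chromosome 17 list.

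A level scaled to the library total depends on what else was sequenced, and a ratio of 2 miRNAs within a library does not. miR-22-3p was therefore divided by 7 of 8 miRNAs commonly used as references in PCR, those matched in the table. Its ratio to miR-191-5p was 0.0864 and 0.115 with apelin, against 0.0677 and 0.0683 in controls. Its ratio to miR-425-5p was 0.156 and 0.192 with apelin, against 0.133 and 0.139 in controls. Its ratio to miR-16-5p was 0.321 and 0.291 with apelin, against 0.286 and 0.253 in controls. In these 3 both apelin libraries were above both controls, though for miR-16-5p only narrowly.

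The ratio was also above in both apelin libraries for miR-24-1-3p, miR-25-3p and miR-103a-2-3p. For miR-24-1-3p it was 0.0748 and 0.0738 with apelin, against 0.0666 and 0.0704 in controls, the smallest log2 difference of the 7 (0.12). miR-24-1-3p itself stood higher in both apelin libraries than in either control, and miR-25-3p itself stood lower. The ratio was thus above in both apelin libraries for 6 of 7. The exception was miR-423-3p, where the groups overlapped, with 0.385 and 0.576 with apelin and 0.304 and 0.408 in controls. Against the geometric mean of all 7 the ratio was 0.163 and 0.186 with apelin, and 0.131 and 0.140 in controls, a log2 difference of 0.36. The reference miRNAs themselves had fitted log2 fold changes from -0.12 to 0.33 with a median of 0.012, and 0 of 7 were called by edgeR in either direction. That median lay near 0, and it turned to -0.027 under upper quartile scaling and to -0.0024 with limma. Each of the other 206 tested catalogue miRNAs above 0 in all libraries was also taken as the divisor in turn. The ratio was above both controls in both apelin libraries for 146, below for 7 and overlapping for 53. As miR-22-3p was chosen for standing higher with apelin, higher ratios were favoured beforehand. Neither this count nor the 6 of 7 is a test, and no such count was made for other miRNAs.

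**Figure D3:**
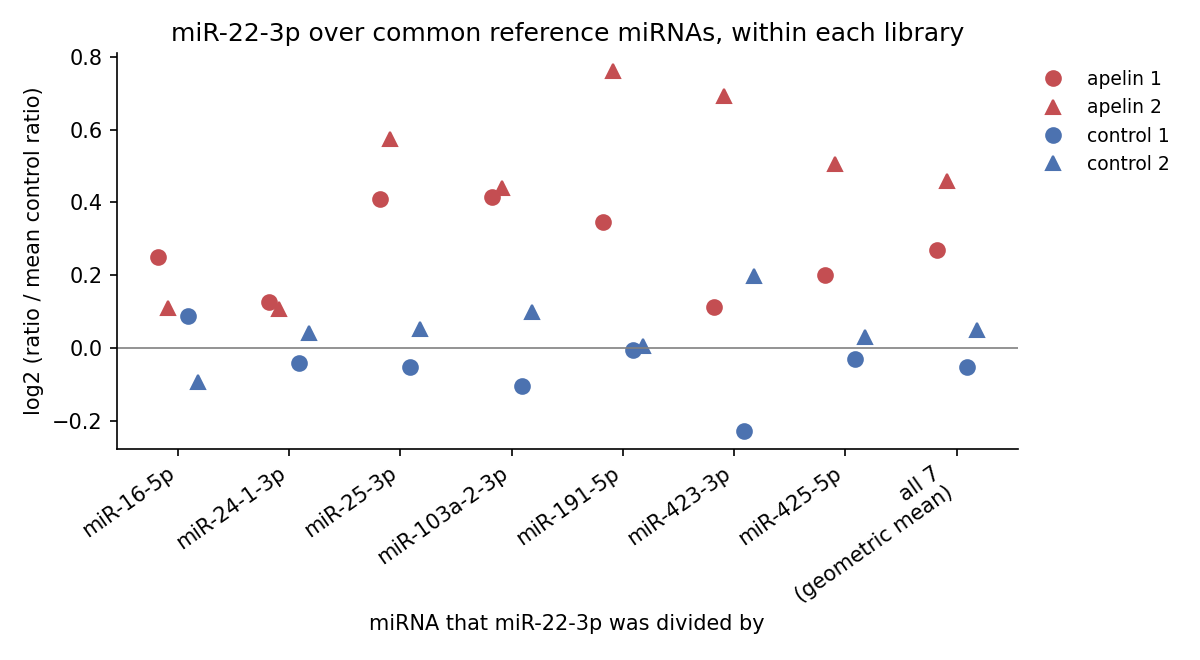
Ratio of miR-22-3p to each of 7 reference miRNAs and to their geometric mean within each library, as log2 of the ratio over the mean control ratio (y axis). Red points are apelin and blue points control libraries; the groups overlap for miR-423-3p and for none of the other 6.

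By mean TPM over the 4 libraries miR-22-3p was number 56 of the catalogue entries, at 1378.1 TPM. A read spans a whole mature miRNA, so levels of these miRNAs, 18 to 24 nt long in the table, were compared per read with no length term. The 3 miRNAs just above were miR-140-3p, miR-30e-5p and miR-361-5p. miR-140-3p stood at 2308.0 and 1678.5 TPM with apelin, against 1654.4 and 1845.2 TPM in controls. It was above miR-22-3p in all 4 libraries, but in apelin 2 by a margin of 1678.5 against 1677.5 TPM. miR-361-5p stood at 1894.1 and 1531.9 TPM with apelin, against 1706.1 and 1866.7 TPM in controls, and was above miR-22-3p in 3 libraries and below it in apelin 2. miR-30e-5p, with the levels given above, was over miR-22-3p in all 4 libraries. Over the 4 libraries the ranges of these 3 overlapped that of miR-22-3p.

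Of the 3 just below, miR-128-1-3p changed places with miR-22-3p between the groups. It stood at 1211.9 and 1277.4 TPM with apelin, against 1522.1 and 1485.8 TPM in controls, so it was under miR-22-3p in both apelin libraries and over it in both controls. miR-148b-3p was under miR-22-3p in all 4 libraries, with 1345.1 and 1502.3 TPM with apelin, against 1099.3 and 1202.0 TPM in controls. miR-1260a owed its place to a single library, with 0 TPM in both apelin libraries and in control 1 and 5499.9 TPM in control 2.

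The miRNAs most like miR-22-3p were sought by the root mean square difference between log2 TPM profiles, each centred on its own mean over the 4 libraries. Scaling a library moves every miRNA in it alike and leaves this measure unchanged. Over the 206 other miRNAs its median was 0.290. The 6 smallest values, with copies of a miRNA counted once, belonged to miR-20a-5p (0.0389), miR-17-5p (0.0456), miR-148b-3p (0.0564), miR-106b-5p (0.0591), miR-24-1-3p (0.0654) and miR-29a-3p (0.0716). All 6 share the 4 libraries with miR-22-3p and were picked for this likeness, so their own difference between the groups is no separate evidence. Their mature sequences are shown so that their seeds, in capitals, can be read against that of miR-22-3p.
miR-20a-5p: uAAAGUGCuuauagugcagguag
miR-17-5p: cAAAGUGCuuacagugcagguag
miR-106b-5p: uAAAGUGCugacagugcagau
miR-148b-3p: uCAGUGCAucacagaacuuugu
miR-24-3p: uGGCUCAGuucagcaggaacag
miR-29a-3p: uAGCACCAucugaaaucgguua
The first 3 share a seed with each other, and none of the 6 has the seed of miR-22-3p. Their genes lie apart from MIR22: MIR20A and MIR17 on chromosome 13, MIR106B and MIR29A on chromosome 7, MIR148B on chromosome 12, and miR-24-3p from chromosome 9 or chromosome 19.

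miR-20a-5p and miR-17-5p, which come from the MYC-driven transcript MIR17HG and restrain cell cycle regulators, followed miR-22-3p most closely. miR-20a-5p stood at 1173.3 and 1274.8 TPM with apelin, against 911.4 and 917.6 TPM in controls. The ratio of miR-22-3p to miR-20a-5p was 1.26 and 1.32 with apelin, against 1.25 and 1.33 in controls, so here the groups overlapped. miR-17-5p stood at 1231.0 and 1320.0 TPM with apelin, against 979.6 and 1006.9 TPM in controls. The ratio to miR-17-5p was 1.20 and 1.27 with apelin, against 1.16 and 1.21 in controls, again overlapping. miR-106b-5p, from the paralogous cluster in MCM7, stood at 1016.6 and 1225.7 TPM with apelin, against 800.9 and 935.7 TPM in controls. miR-29a-3p, which represses collagens, stood at 27893 and 29958 TPM with apelin, against 22815 and 24669 TPM in controls. In each of these miRNAs both apelin libraries were above both controls, apelin 2 was the highest and control 1 the lowest, as in miR-22-3p.

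**Figure D4:**
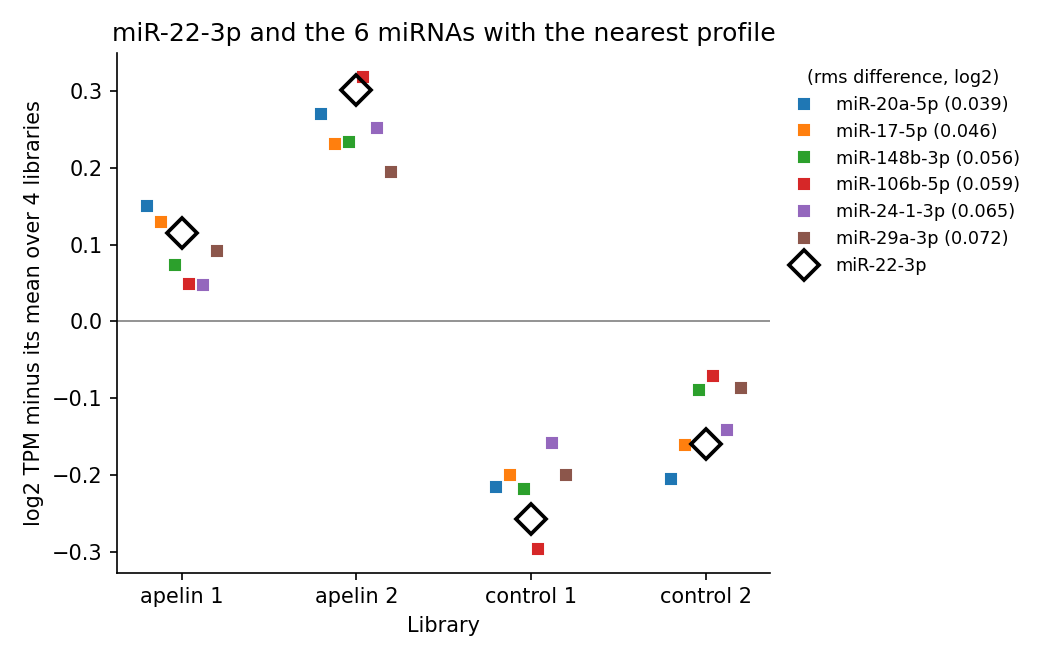
Log2 TPM of miR-22-3p (open diamonds) and of the 6 miRNAs with the nearest profile (squares), each minus its own mean over the 4 libraries (y axis), by library (x axis). All 7 are above 0 in both apelin libraries and below 0 in both controls; numbers in the legend are root mean square differences from miR-22-3p.

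Of 8 other miRNAs reported to repress TET2, 7 were matched and tested. edgeR called 0 of 7 in either direction. Fitted values were positive for 5 and negative for 2, with a median log2 fold change of 0.15, or -0.040 without apelin 2, against -0.018 over all 263 entries. Both apelin libraries lay above both controls for 3 of 7 and below for 0, where 22.7% and 17.4% of the 207 catalogue miRNAs did. These 3 were miR-29a-3p, miR-29c-3p (0.92, SE 0.33, edgeR adjusted p = 0.627, DESeq2 adjusted p = 0.0499) and miR-101-2-3p (0.60, SE 0.28, edgeR adjusted p = 0.627). miR-29c-3p stood at 49.98 and 76.3 TPM with apelin, against 32.8 and 35.3 TPM in controls. Without apelin 2 the fold changes were 0.47 for miR-29c-3p and 0.20 for miR-101-2-3p. The most abundant of the list, miR-125b-5p, stood at 50475 and 38185 TPM with apelin, against 48407 and 51461 TPM in controls, and overlapped, as did miR-26a-5p and miR-26b-5p.

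The other miRNAs from the same region of chromosome 17 were low beside miR-22-3p. Of 16 names 6 were matched and 5 tested, and edgeR called 0 of 5 in either direction. Their median log2 fold change was -0.044, or 0.0034 without control 2. The nearest, miR-132-3p, a CREB-induced miRNA 0.336 Mb from miR-22-3p, stood at 43.4 and 44.2 TPM with apelin, against 42.9 and 51.6 TPM in controls (log2 fold change -0.084, SE 0.19, and -0.20 to 0.0034 with a library left out). miR-195-5p, a relative of miR-16 that lies 5.30 Mb away, stood at 32.9 and 33.0 TPM with apelin, against 26.6 and 26.5 TPM in controls (0.33, SE 0.20, edgeR adjusted p = 0.627). It was the list's 1 member with both apelin libraries above both controls. Its cluster partner miR-497-5p overlapped, with 21.4 and 22.5 TPM with apelin, against 22.3 and 23.7 TPM in controls. miR-324-3p was lower in each apelin library than in either control, with 123.1 and 104.4 TPM with apelin, against 128.0 and 134.2 TPM in controls. So 1 of the 5 tested was higher in this way and 1 lower, where 22.7% and 17.4% of the 207 catalogue miRNAs were. miR-744-5p, 10.4 Mb away, overlapped, with 215.7 and 126.5 TPM with apelin, against 153.0 and 176.9 TPM in controls.

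No messages were measured, so targets can be described by sequence alone. The complement of the seed, GGCAGCT, was searched on the sense strand in the longest annotated 3′UTR of each protein-coding gene (GENCODE release 29, median length 1081 bases). It was present in 2665 of 19144 genes (13.9%), and it was followed by A, the fuller form of the site, in 386 (2.02%). Of 13 genes reported as targets of miR-22 that were searched, 11 held it and 5 held it followed by A. These genes were reported partly because of such matches, so this count is no test of them. All of them but ACLY (902 bases) also had a 3′UTR above the median of 1081 bases, and a longer 3′UTR has more room for a match. Of 4 genes of the apelin and VEGF-C pathway it was found in FLT4, the VEGF-C receptor, and not in these windows of VEGFC, APLN or APLNR.

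The sites of 3 reported targets and of FLT4 are shown, with the match to the seed in capitals and coordinates of the match in GRCh38. SIRT1, a deacetylase, at chr10:67917123-67917129 (plus strand) has the A. Of the 3 matches of TET2, 2 have the A, and 1 of these is shown, at chr4:105242138-105242144 (plus strand). MAX, the partner of MYC, at chr14:65076202-65076208 (minus strand) and FLT4 at chr5:180611422-180611428 (minus strand) lack the A.
SIRT1: attttccaaaactgtGGCAGCTaac
TET2: cttaggatacattggGGCAGCTagg
MAX: aaaacaccccaacttGGCAGCTttt
FLT4: cagagctcagaagagGGCAGCTtct
A match is a description of the letters, and whether miR-22-3p acts on any of them in these cells was not measured.

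The libraries held 5322429 and 5701358 counts with apelin, and 6014838 and 5662879 in controls. Predicted entries took 2.62% and 1.29% of the counts with apelin, and 2.87% and 2.17% in controls. Epithelial miRNAs summed to 7866 to 8246 TPM with apelin and 8043 to 8386 TPM in controls, mostly miR-200b-3p, with 6 of 7 matched. Within this list miR-200c-3p stood at 25.9 and 23.0 TPM with apelin, against 33.3 and 33.2 TPM in controls (edgeR adjusted p = 0.627, DESeq2 adjusted p = 0.0376). miR-205-5p stood at 81.0 and 72.3 TPM with apelin, against 93.9 and 97.7 TPM in controls (edgeR adjusted p = 0.627, DESeq2 adjusted p = 0.0129). Of the 5 tested, 3 were lower in each apelin library than in either control, these 2 and miR-200b-3p. miR-200a-3p was higher in each, with 928.7 and 1216.4 TPM with apelin, against 906.4 and 902.5 TPM in controls, and miR-429 overlapped. Of the 207 catalogue miRNAs, 17.4% were lower in this way and 22.7% higher, and DESeq2 called 20.2% of the 263 tested entries. Markers of 5 other lineages were low: myeloid miR-223-3p was at most 3.33 TPM, liver miR-122-5p at most 4.82 TPM, endothelial miR-126-3p at most 13.7 TPM, the fibroblast list summed to at most 6.48 TPM, and the muscle list to at most 2.63 TPM. The red cell list summed to 28.2 to 33.8 TPM with apelin and 35.7 to 37.1 TPM in controls, all from miR-486-5p. The neuronal list summed to 300.1 to 399.2 TPM with apelin and 297.8 to 299.0 TPM in controls, all from miR-9-5p, which was higher in both apelin libraries than in either control. The part of these markers in the values of miR-22-3p was not tested.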

How the data were processed

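The authors deposited raw read counts per mature miRNA entry and TPM values for each library, with a length in nt per entry. Trimmomatic 0.30 and DESeq2 are named in the submitters' processing notes. The aligner, miRNA catalogue and genome build were not given in the sources used here. In the table, TPM as deposited equals the count scaled to 1000000 counts of its library, within 0.005 in 3 libraries and 0.151 in apelin 2.

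TPM was recomputed from the counts. Entries with a mean of at least 10 TPM (263) were fitted with edgeR 4.0.16 (quasi-likelihood test, TMM scaling, apelin minus control, two-sided, Benjamini-Hochberg adjustment over all 263, threshold 0.05) in R 4.3.3. Each SE is the absolute log2 fold change divided by the root of edgeR's F. DESeq2 1.42.0, limma 3.58.1, other scalings and filters, a replicate block and leaving out each library were alternatives. The edgeR script was tested on simulated data. A count of 0 allows up to 3 counts, or 0.499 to 0.564 TPM.

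miRNAs named were miR-22-3p, the 6 nearest profiles, the 3 entries on each side by level, and tested members of the lists. miR-30e-5p, miR-21-5p and miR-20a-5p were also named for their larger fold change, after their values were seen. For a miRNA listed under hairpin copy names the copy with the most counts was used. Copies share reads, so their values are uncertain. Counts and shares over the 263, 207 or 206 entries kept each copy as its own entry. Results for 1 planned list are not reported here. The member and the lists were chosen with earlier results of these data known. Sequences came from RefSeq (GRCh38.p14) and GENCODE release 29, folded with RNAfold 2.7.2.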

Additional observations from a re-analysis of the deposited data

How the results depend on the processing

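The log2 fold change of miR-22-3p was positive in all 17 other settings. As miR-22-3p was chosen for standing higher in both apelin libraries, this sign was favoured beforehand, also with a library left out, and is no test. It ran from 0.41 to 0.46 in the 13 that kept all 4 libraries, and from 0.24 to 0.56 with a library left out. With the replicate numbers as a block it was 0.44 and edgeR called 0 entries; no label ties libraries of the same number together, and over 207 miRNAs their deviations from the group means correlated at 0.312.

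The number of entries called was 0 with edgeR. It was 4 with upper quartile scaling or a minimum of 100 TPM, 52 with no filter and 1 with catalogue names alone. It was 53 with DESeq2, and 4, 5 and 4 with limma at pseudocounts of 1, 0.1 and 10. With a library left out it ran from 0 to 19. Of the called entries, 23 with DESeq2 and 1 with no filter were above 0 in all libraries.

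The log2 ratio difference against the reference miRNAs, 0.36, was 0.55 with miR-191-5p alone and 0.27 to 0.46 with a library left out. With a library left out the list medians ran from -0.040 to 0.25 (TET2), -0.17 to 0.0034 (chromosome 17) and -0.091 to 0.074 (reference). The TET2 median was 0.031 at a minimum of 100 TPM. The reference median was -0.027 with upper quartile scaling and -0.0024 with limma at each of the 3 pseudocounts. Of 10 other named fold changes, 3 reversed, each with a library left out: miR-132-3p (-0.20 to 0.0034), miR-497-5p (-0.18 to 0.015) and miR-744-5p (-0.33 to 0.31). Another 3 were called in 1 setting each: miR-20a-5p with DESeq2 (adjusted p = 0.00151), miR-29c-3p with DESeq2 (adjusted p = 0.0499) and miR-21-5p in edgeR with no filter (adjusted p = 0.0250). DESeq2 also called named miRNAs outside these 10, among them miR-17-5p (adjusted p = 0.00467), miR-205-5p (adjusted p = 0.0129) and miR-200c-3p (adjusted p = 0.0376). Fits with a library left out rest on fewer samples, and otherwise the cause was not tested.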
